A study of Rattus norvegicus with 6 samples.

Results

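The miRNAs described here are miR-146a and miR-146b, a pair of paralogs with the same seed that are transcribed from separate genes. All rows of the deposited count table with the stem rno-miR-146a or rno-miR-146b, on either arm, were taken, and each mature sequence was kept once. This gave 3 of the 417 different mature sequences in the table, namely rno-miR-146a-5p, rno-miR-146b-5p and rno-miR-146b-3p, written below without the species prefix. Small RNA had been sequenced from extracellular vesicles (EVs) released by dedifferentiated fat (DFAT) cells of Sprague-Dawley rats, with 3 libraries from cells held 14 d in osteogenic induction medium and 3 libraries at 0 d of that medium. DFAT cells are fibroblast-like cells obtained when mature fat cells are cultured against a ceiling surface and lose their lipid. Every library comes from adipose-derived DFAT cells with no genetic change named in the labels, and vesicles were collected by ultracentrifugation. The labels do not state whether replicates came from separate animals or cultures, so the spread between them may be technical.

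miRNAs repress messenger RNAs that pair with bases 2 to 8 of their 5′ end, called the seed. miR-146a is known from human monocytes as a target of the inflammatory transcription factor NF-kB, and it represses Traf6 and Irak1, adaptors of Toll-like and interleukin-1 receptors, so that it damps the signal that induces it. miR-146b responds to NF-kB and STAT3, and in mouse preadipocytes it promotes fat cell differentiation. Because vesicle RNA is a bulk sample, fewer vesicles of a kind and less of a miRNA per vesicle cannot be told apart.

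The mature sequences and their precursors are shown first because they set how the paralogs can be told apart by sequencing. In the mature sequences below, which RefSeq (GRCr8) and, for the 3 listed rows, the deposited table give alike, capitals mark the seed.

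miR-146a-5p: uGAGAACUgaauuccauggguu

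miR-146b-5p: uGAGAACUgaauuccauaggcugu

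miR-146b-3p: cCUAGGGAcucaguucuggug

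miR-146a-3p: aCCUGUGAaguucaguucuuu

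The 5p arms share the seed GAGAACU and their first 17 bases. Counted from 1 at the 5′ end, with the base of miR-146a-5p first, they differ by G18A and U21C, and miR-146b-5p is 24 bases long against 22. No other sequence among the 417 has this seed at bases 2 to 8. The 3p arms have seeds that differ from each other and from the seed of the 5p arms. In the RefSeq hairpins below, capitals mark the 5p arm.

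hairpin of miR-146a: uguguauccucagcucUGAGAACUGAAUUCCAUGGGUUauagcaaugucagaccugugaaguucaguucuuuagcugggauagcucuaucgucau

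hairpin of miR-146b: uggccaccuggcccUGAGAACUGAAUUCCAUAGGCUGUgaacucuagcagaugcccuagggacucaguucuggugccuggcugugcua

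Outside the 5p arm, 43 bases of the aligned hairpins were identical, which is 58.9% of the longer one. The RefSeq gene table (GRCr8, not the rn6 build named in the submitters' processing notes) places Mir146a on chromosome 10 inside the long non-coding RNA gene LOC134480673, between Atp10b and Pttg1. It places Mir146b on chromosome 1 between Cuedc2 and Mfsd13a, inside the span of C1h10orf95. A read that ends at or before base 17 of the 5p arm cannot be assigned to either gene, and the sources used here do not say how the authors' counting treated such reads. A read that reaches base 18 and ends before base 21 is told apart by G18A alone. The part of base errors in the counts of the scarcer paralog was not tested.

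Library totals were 58730 to 73236 counts at 14 d and 120766 to 164424 counts at 0 d. Stromal marker miRNAs from a list of 12, of which miR-21-5p is by far the most abundant, held 65.1% to 72.3% of counts at 14 d and 32.4% to 45.6% at 0 d, with 11 of the 12 listed. Without miR-21-5p the list held 3.59% to 5.40% at 14 d and 2.98% to 3.32% at 0 d. Its members went both ways. miR-152-3p had 928, 2909 and 1470 counts at 14 d, against 1353, 1524 and 551 at 0 d. miR-100-5p had 145, 213 and 152 counts at 14 d, against 1389, 1260 and 1449 at 0 d. In the fit described below, 5 of the 11 tested were called higher at 14 d and 1 lower. Over all tested sequences, 26.1% were called higher and 28.6% lower. Leukocyte markers held 0% to 0.00818% at 14 d and 0% to 0.0371% at 0 d. Of the 7 leukocyte markers 5 were listed, and the defining miR-142-3p and miR-223-3p had no row. In each group 1 library stood apart. The library 14 d replicate 2 had a composition factor (trimmed mean of M-values, TMM) of 0.471, against 0.923 and 0.922 in the other 14 d libraries. The library 0 d replicate 3 held 10.7% of its counts in the liver-enriched miR-122-5p, against 3.08% and 2.77% in the other 0 d libraries.

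miR-146b-5p was the abundant paralog and was lower in 14 d vesicles. It had 149, 104 and 105 counts in the 14 d libraries, against 1429, 2264 and 1467 counts in the 0 d libraries. As a share of each library's counts this was 0.244%, 0.142% and 0.179% at 14 d, against 0.938%, 1.38% and 1.21% at 0 d. The highest 14 d library lay below the lowest 0 d library, and the 95% Clopper-Pearson intervals of those libraries, 0.206% to 0.286% for 14 d replicate 1 and 0.891% to 0.988% for 0 d replicate 1, were also apart. Such intervals cover counting error only. The group means were 0.188% ± 0.0515 in 14 d vesicles and 1.18% ± 0.222 in 0 d vesicles (SD over 3 libraries each), a difference with an exact 2-sided permutation p of 0.1, the smallest that 3 libraries against 3 allow. By rank of counts, miR-146b-5p stood at places 26, 34 and 33 in the 14 d libraries, against 14, 11 and 13 in the 0 d libraries.

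With counts scaled by TMM factors, miR-146b-5p had 2642, 3016 and 1939 CPM (counts scaled to a common library size) at 14 d, against 6994, 10241 and 8775 CPM at 0 d. The groups again did not overlap. miR-146b-5p fell by 1.78 ± 0.37 on the log2 scale (SE, n = 3 per group; edgeR quasi-likelihood test, adjusted p = 0.00652), that is 3.43-fold. Over all 119 sequences tested, 54.6% passed the threshold (adjusted p below 0.05), 28.6% as lower at 14 d, and 78.2% had groups that did not overlap, 37.0% as lower at 14 d, so a call in this comparison was common. Among the 34 sequences called lower, miR-146b-5p had the change that ranked 29 by size. Its biological coefficient of variation in the fit was 0.371, the value that ranked 6 from the lowest among the 119, against a median of 0.573.

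**Figure D1:**
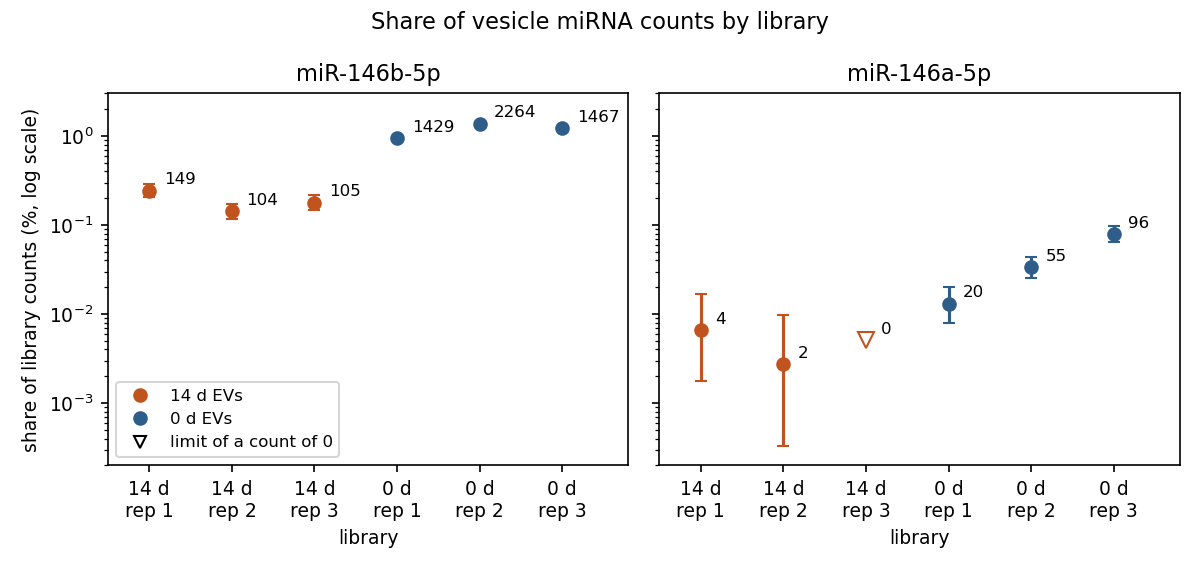
Share of library counts (percent, log axis) of miR-146b-5p and miR-146a-5p in the 3 libraries at 14 d and the 3 at 0 d; bars are 95% Clopper-Pearson intervals, numbers are counts, and the open triangle is the limit that a count of 0 allows. The 14 d libraries lie between 0.142% and 0.244% for miR-146b-5p, below the 0 d libraries at 0.938% to 1.38%, while miR-146a-5p is near its counting limit at 14 d.

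The size of the miR-146b-5p change depended on the scaling. With total counts the log2 fold change was -2.64 (6.25-fold lower, adjusted p = 0.0012), and from the authors' normalized values it was -2.53 (limma, log2 of the value plus 1, adjusted p = 0.00474). The median of all tested sequences was 0.26 with TMM and -0.53 with total counts, so that the distance of miR-146b-5p from the median was -2.04 with TMM and -2.11 with total counts, both on the log2 scale. The distance depended on which sequences were tested, and was -0.75 with a stricter filter and 0.18 with no filter. With libraries thinned to 58730 counts, the median over 25 draws was -1.25 (adjusted p = 0.0245), and 20 of the 25 draws gave a call. The log2 fold change with the stricter filter, 50 counts in at least 3 libraries, was -1.18 (adjusted p = 0.0232).

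Leaving out any 1 library gave log2 fold changes of -2.0 to -1.59 with adjusted p-values of 0.00529 to 0.0424. Without 14 d replicate 2 the value was -1.91 (adjusted p = 0.00529), and without 0 d replicate 3 it was -1.78 (adjusted p = 0.0158). The change was therefore about as large without either library that stood apart. Relative to miR-21-5p, which is known as abundant in stromal cells, miR-146b-5p had 3.55, 2.38 and 2.86 counts per 1000 miR-21-5p counts at 14 d, against 24.5, 32.5 and 41.3 at 0 d. miR-21-5p itself rose with TMM scaling (log2 fold change 1.73, edgeR adjusted p = 0.0142), a call that ended with total counts (0.79, adjusted p = 0.0522). With miR-21-5p left out of the denominator, the share of miR-146b-5p was 0.779%, 0.352% and 0.476% at 14 d, against 1.52%, 2.39% and 1.72% at 0 d.

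**Figure D2:**
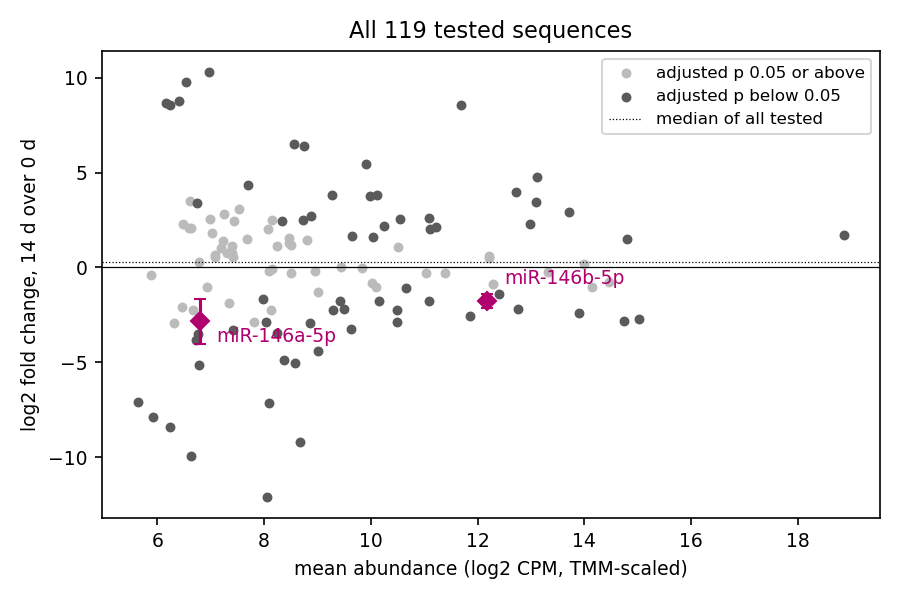
Log2 fold change (14 d over 0 d, TMM scaling) against mean log2 CPM for the 119 tested sequences; dark points passed an adjusted p below 0.05, the dotted line is the median of 0.26, and the diamonds are the miR-146 paralogs with their SE. miR-146b-5p lies at -1.78 and miR-146a-5p at -2.83; extreme points belong to sequences with few or no counts in 1 group, whose fitted values are no bounds.

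miR-146a-5p, the paralog best known from NF-kB feedback, was scarce in every library. It had 4, 2 and 0 counts in the 14 d libraries, against 20, 55 and 96 counts in the 0 d libraries. The shares were 0.00654%, 0.00273% and 0% at 14 d, against 0.0131%, 0.0335% and 0.0795% at 0 d. The 0 counts of 14 d replicate 3 allow a share of up to 0.00511% (3 counts), or 0.00628% by the Clopper-Pearson limit. The groups did not overlap, which in TMM-scaled CPM was so for 78.2% of all tested sequences (37.0% as lower at 14 d). The Clopper-Pearson interval of 14 d replicate 1, 0.00178% to 0.0168%, overlapped that of 0 d replicate 1, 0.00802% to 0.0203%. The group means were 0.00309% ± 0.00329 in 14 d vesicles and 0.0420% ± 0.0340 in 0 d vesicles (SD over 3 libraries each; exact 2-sided permutation p = 0.1, the smallest possible). The difference of -0.0389 percentage points was -0.0202 without 0 d replicate 3.

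The TMM-scaled values of miR-146a-5p were 70.9, 58.0 and 0 CPM at 14 d, against 97.9, 249 and 574 CPM at 0 d. Its log2 fold change was -2.83 ± 1.19 (SE, n = 3 per group), which did not pass the threshold (edgeR adjusted p = 0.0719, unadjusted p = 0.0452). miR-146a-5p reached the low-count filter in the 3 libraries at 0 d and in 0 of 3 at 14 d, so that it was tested only through the group in which it was higher. Summed over libraries, the 6 counts at 14 d and 171 counts at 0 d gave a TMM-scaled ratio 6.97-fold lower at 14 d, with a 95% interval of 3.14 to 19.3 for counting error alone. The biological coefficient of variation was 0.809, ranked 96 from the lowest of 119.

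The call of miR-146a-5p changed with the scaling and the tool, while its direction did not. The constant direction is no separate support, because the settings reuse the same counts of a miRNA that passed the filter through the 0 d group. Scaling by total counts gave a call (log2 fold change -3.71, adjusted p = 0.0185), as did upper-quartile factors (-3.13, adjusted p = 0.0385) and DESeq2 (-2.93, adjusted p = 0.0249). Keeping 1 row per name also gave a call (-3.63, adjusted p = 0.0249). From the authors' normalized values in limma it was called with a pseudocount of 1 (-3.82, adjusted p = 0.0344) and not with 0.1 (-5.02, adjusted p = 0.0867). Without 0 d replicate 1, the 0 d library with the fewest of its counts, it was also called (-3.23, adjusted p = 0.0359). It was not called without 14 d replicate 1 (-3.54), without 14 d replicate 2 (-3.07) or without 14 d replicate 3 (-2.21, adjusted p = 0.192), and without 0 d replicate 2 or 0 d replicate 3 it fell below the filter. After thinning it reached the filter in 4 of 25 draws and was called in 0 of them.

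**Figure D3:**
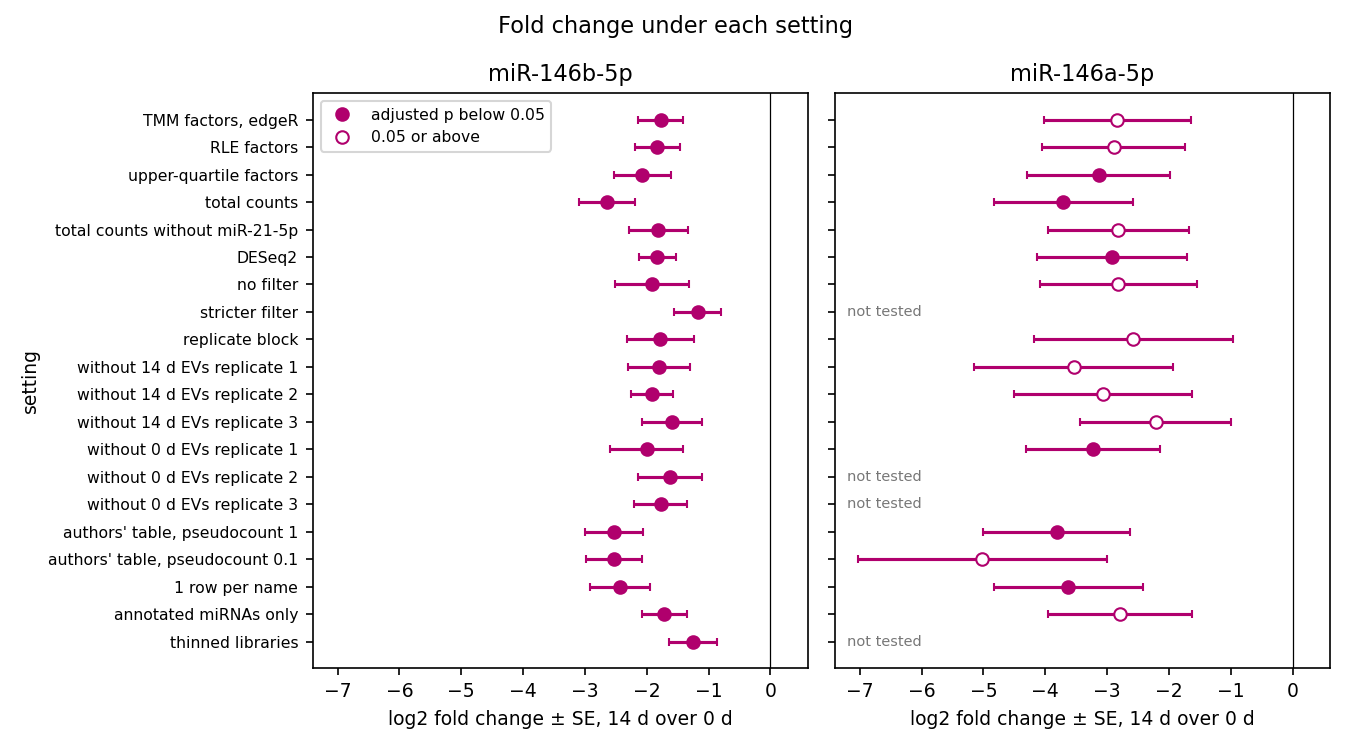
Log2 fold change ± SE (14 d over 0 d) of miR-146b-5p and miR-146a-5p under each processing setting, with filled points where the adjusted p was below 0.05; "not tested" marks settings in which the miRNA was below the filter. The miR-146b-5p values run from -2.64 to -1.18, each past the threshold, and the miR-146a-5p values from -5.02 to -2.21, on both sides of it.

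The ratio of the paralogs within a library needs no scaling between libraries. miR-146b-5p exceeded miR-146a-5p in all 6 libraries. The ratio of miR-146b-5p to miR-146a-5p counts was 37.2 (95% interval 14.2 to 139), 52.0 (14.0 to 435) and at least 35 (0 counts taken as 3) in the 14 d libraries. By the interval method of the other libraries, the lower limit for 14 d replicate 3 was 28.0. In the 0 d libraries the ratio was 71.5 (46.1 to 117), 41.2 (31.5 to 54.8) and 15.3 (12.4 to 19.0). The measured 14 d ratios lay inside the range of the 0 d ratios, and the third is known only as a lower bound. The mean log2 ratio was 5.35 ± 0.31 at 14 d and 5.15 ± 1.13 in 0 d vesicles (SD over 3 libraries each). The 14 d mean and SD rest on 0 counts taken as 3, and the mean is a lower bound only on that basis. The difference of 0.20, on the same basis, was within the spread between replicates (exact 2-sided permutation p = 0.9). With 0.5 added to both counts, a choice made after seeing the data, the difference was 0.92 (exact permutation p = 0.5), and without 0 d replicate 3 it was -0.41 (exact permutation p = 0.4, where the design allows no less than 0.1). An unequal change of the paralogs was thus not detected in these libraries, which does not show that they changed alike.

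The fraction of miR-146a-5p among both 5p arms varied between the 0 d libraries. It made up 6.14% (Clopper-Pearson 95% interval 5.0% to 7.45%) of their counts in 0 d replicate 3, against 2.37% (1.79% to 3.08%) in 0 d replicate 2 and 1.38% (0.845% to 2.12%) in 0 d replicate 1. The interval of 0 d replicate 3 lies above those of the other 0 d libraries. These intervals take reads as independent molecules and do not measure the spread between samples. The corresponding values at 14 d were 2.61% (0.717% to 6.56%), 1.89% (0.229% to 6.65%) and 0% (0% to 3.45%). Together, the 5p arms held 0.191% ± 0.0539 of counts in 14 d vesicles and 1.22% ± 0.239 in 0 d vesicles (SD over 3 libraries each), nearly all of it miR-146b-5p.

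**Figure D4:**
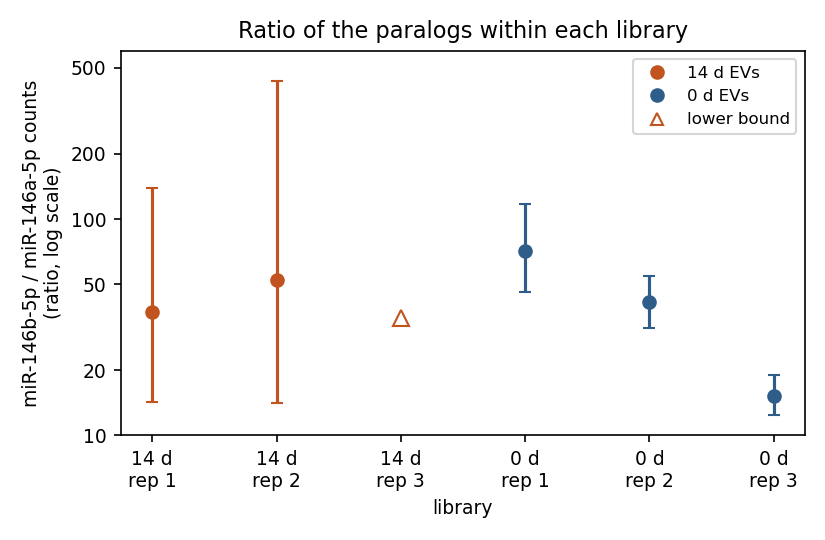
Ratio of miR-146b-5p to miR-146a-5p counts within each library (log axis), with 95% Clopper-Pearson intervals; the open triangle is a lower bound from a library with 0 miR-146a-5p counts. The 14 d ratios are 37.2, 52.0 and at least 35, beside 15.3 to 71.5 at 0 d.

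The passenger arm of miR-146b was seen in 1 library. miR-146b-3p had 6 counts in 0 d replicate 2 and 0 counts in the other libraries, beside 2264 counts of the 5p arm in that library. It therefore made up 0.264% (Clopper-Pearson 95% interval 0.0971% to 0.574%) of miR-146b counts there. Over the 14 d libraries, 0 of 358 counts from either arm allow a 3p share of up to 0.838% (3 counts), or 1.03% by the Clopper-Pearson limit. A share of the size seen at 0 d was therefore not detectable at 14 d. miR-146b-3p did not reach the low-count filter and was not tested. miR-146a-3p had no row in the table.

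Among miRNAs of similar mean abundance, miR-146b-5p stood between miR-22-3p and miR-191a-5p above and let-7a-5p and miR-423-5p below. let-7a-5p, of the growth-restraining let-7 family, fell by 2.55 ± 0.54 on the log2 scale (edgeR adjusted p = 0.0067). The values were 0.58 for miR-22-3p, 0.52 for miR-191a-5p and -0.30 for miR-423-5p, none past the threshold (adjusted p = 0.161, 0.398 and 0.486). The order of levels therefore differed between the groups. At 14 d, miR-191a-5p had 5711, 6671 and 5798 TMM-scaled CPM, each above miR-146b-5p, and at 0 d it had 4831, 6188 and 1651 CPM, each below the miR-146b-5p value of the same library.

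The neighbours of miR-146a-5p in abundance were miR-140-3p and miR-340-5p above and miR-127-3p and miR-101a-3p below. miR-127-3p, encoded in the imprinted Dlk1-Dio3 locus, had 2, 0 and 0 counts at 14 d, against 121, 109 and 67 at 0 d. Like miR-146a-5p, it reached the filter in 0 of 3 libraries at 14 d and was tested only through the 0 d group, so no test is given. miR-340-5p had 3, 4 and 4 counts at 14 d, against 20, 64 and 16 at 0 d. It too reached the filter in 0 of 3 libraries at 14 d, so no test is given for it. miR-140-3p and miR-101a-3p had log2 fold changes of 2.56 and 0.26, neither past the threshold (edgeR adjusted p = 0.104 and 0.872).

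The annotated miRNAs whose log2 CPM followed miR-146b-5p most closely over the 6 libraries were miR-98-5p (Pearson r = 0.98), miR-99a-5p (0.97), miR-434-3p (0.96), miR-369-3p (0.96) and miR-433-3p (0.96). For miR-146a-5p they were miR-361-3p (0.92), miR-146b-5p (0.87), let-7i-5p (0.87), miR-99a-5p (0.86) and miR-369-3p (0.86). These correlations are a description. miR-98-5p, miR-434-3p and miR-433-3p, like miR-146a-5p, reached the filter in 0 of 3 libraries at 14 d. miR-434-3p and miR-433-3p had 0 counts in each of those libraries, so their 14 d values come only from the constant added before the logarithm. A high r of these miRNAs with one that was lower at 14 d was therefore built in. The 6 points share their library depth and scaling and fall into 2 groups, so a difference between the groups enters each value.

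A list of 26 other miRNAs linked to NF-kB, STAT3 or Toll-like receptor signalling was read in the same fit. Of these, 22 had a row and 14 were tested, of which 4 were higher, 3 were lower and 7 did not pass (edgeR adjusted p below 0.05; 26.1% of all tested sequences were called higher and 28.6% lower). The median log2 fold change of the list was 0.61, against 0.26 over all tested sequences, and 2 of the 14, miR-98-5p and miR-125a-5p, reached the filter in 0 of 3 libraries at 14 d, so that 1 of the 3 lower calls, miR-98-5p, came from a member tested only through the 0 d group. With total counts the split was 2 higher and 5 lower, beside 18 higher and 46 lower over all 119 tested sequences. The balance of directions thus turned with the scaling in the whole table as in the list. Without 14 d replicate 1 it was 4 and 2 of 15 tested, and the same without 14 d replicate 3, and without 14 d replicate 2 it was 3 and 3 of 15. Without 0 d replicate 1, and likewise without 0 d replicate 2, it was 5 and 3 of 14. Over all tested sequences the splits were then 29 and 29 of 116, and 35 and 34 of 119.

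The members called higher were miR-221-3p (log2 fold change 3.99 ± 0.80), which in human cells represses the cell cycle inhibitor p27, miR-20a-5p of the miR-17-92 cluster (2.60 ± 0.61), miR-16-5p (2.50 ± 0.75) and miR-21-5p (1.73 ± 0.45). miR-16-5p and miR-21-5p were not called with total counts (1.37 and 0.79) or from the authors' normalized values plus 1 (1.35 and 0.94). miR-16-5p was also not called without 14 d replicate 2 (1.42) or without 0 d replicate 3 (2.41). Without 14 d replicate 2, miR-221-3p was at 2.64 and miR-20a-5p at 1.72, both still called. The members called lower were miR-125b-5p (-2.95 ± 0.60), which in mouse macrophages represses tumour necrosis factor, miR-98-5p of the let-7 family (-2.87 ± 0.59) and the endothelial miR-126a-3p (-1.76 ± 0.46), which in human endothelial cells represses the adhesion molecule Vcam1. miR-125b-5p was at -3.56 without 14 d replicate 1, and miR-126a-3p was not called without 14 d replicate 1 (-1.57) or without 14 d replicate 3 (-1.82).

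The 7 members that did not pass had log2 fold changes of 3.05 (miR-132-3p), 2.82 (miR-17-5p), 1.41 (miR-10a-5p), -0.19 (miR-222-3p), -0.29 (miR-199a-3p), -1.04 (let-7i-5p) and -2.24 (miR-125a-5p). Some of these calls turned with the setting, as total counts made let-7i-5p a lower call (-1.90, adjusted p = 0.00762) and leaving out 0 d replicate 1 made miR-132-3p a higher call (3.73, adjusted p = 0.0448), as did leaving out 0 d replicate 3 (2.47, adjusted p = 0.0433). miR-17-5p was called higher without 0 d replicate 2 (5.0, adjusted p = 0.0184). miR-155-5p, the classic NF-kB-induced miRNA of activated leukocytes, had 0, 0 and 0 counts at 14 d, against 26, 20 and 0 counts at 0 d, and was below the filter.

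**Figure D5:**
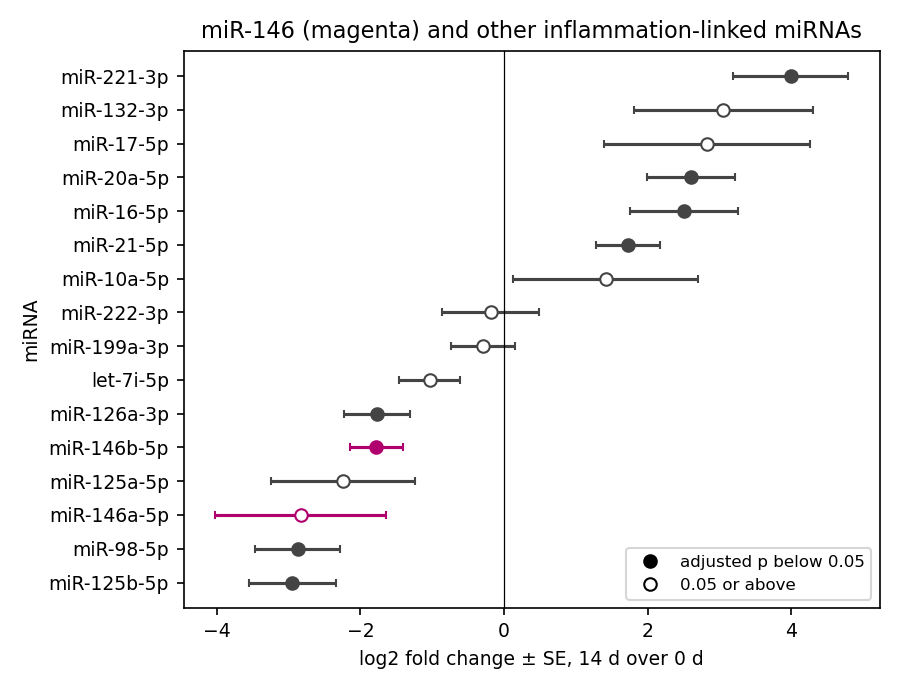
Log2 fold change ± SE (14 d over 0 d, TMM scaling) of miR-146a-5p, miR-146b-5p and the 14 tested inflammation-linked miRNAs; filled points had an adjusted p below 0.05. miR-146b-5p at -1.78 lies with miR-126a-3p at -1.76 in the lower part of a list that reaches from -2.95 to 3.99.

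The summed shares of the red cell and serum list and of the endothelial markers were also lower at 14 d, while single members went both ways. The 9 miRNAs of the red cell and serum list, all with a row, held 0.933% to 1.13% of counts at 14 d and 5.30% to 13.2% at 0 d. The highest of these shares, 13.2%, was in 0 d replicate 3, the library with the highest miR-146a-5p share, while its miR-146b-5p share of 1.21% lay between those of the other 0 d libraries. Most of that 13.2% was miR-122-5p. Of the 15986 counts of the list in 0 d replicate 3, 12911 were miR-122-5p, 357 miR-486 and 75 miR-144-5p. Of the 6 members of the list that were tested, 4 were called lower, 1 was called higher (miR-16-5p, given above) and miR-423-5p did not pass. Over all 119 tested sequences, 28.6% were called lower and 26.1% higher. Of the 4 lower calls, 2 (miR-486 and miR-144-5p) came from members tested only through the 0 d group. The red cell miR-486 had 3, 2 and 4 counts at 14 d, against 624, 223 and 357 at 0 d. miR-144-5p, also of red cells, had 0, 0 and 5 counts at 14 d, against 93, 56 and 75 at 0 d. Both reached the filter in 0 of 3 libraries at 14 d and were tested only through the 0 d group, so no test is given for either. The red cell markers miR-451-5p and miR-144-3p were at 0 in 5 of the 6 libraries each. The liver-enriched miR-122-5p held 0.409%, 0.567% and 0.594% of counts at 14 d, against 3.08%, 2.77% and 10.7% at 0 d. Endothelial markers held 0.0205% to 0.0409% at 14 d and 0.138% to 0.220% at 0 d. The part of red cell, serum or endothelial RNA in the miR-146 difference was not tested. Leukocyte markers had 5, 0 and 2 counts at 14 d, against 30, 61 and 0 at 0 d, with 0 in the 0 d library that had the most miR-146a-5p and that listed the fewest sequences, 154. The part of leukocyte RNA in the miR-146 difference was not tested either.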

How the data were processed

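Per the labels' protocols, vesicle RNA was extracted with Trizol and made into small RNA libraries. Build rn6, Novoalign 3.02.12 and cutadapt 1.9.3 are named, without roles, per the submitters' processing notes. The authors deposited tag counts for each mature miRNA, per the file headers, and a normalized score for each, by a method that the sources used here do not give. Blanks were taken as 0, and the smallest listed count was 2. Repeated lines of 1 mature sequence, which had the same counts, were kept once.

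The main test was edgeR 4.0.16 (R 4.3.3), quasi-likelihood, 2-sided, on all sequences with TMM factors, group as the only term, the default filter (minimum count 10, minimum total 15) and Benjamini-Hochberg adjustment. It was also run on simulated data with a common dispersion for all sequences and seeded changes balanced in direction. The outcome is not given here, and that setting differs from these data. Shares and ratios used exact permutation tests over libraries. Alternatives used limma 3.58.1, DESeq2 1.42.0 and the settings in the closing section. Named miRNAs are the members, the 5 most alike by correlation, 2 neighbours in abundance on each side and the tested list members; miR-155-5p and the source markers were named after their values were seen. The members and lists were chosen with earlier results of these data known. Within each group, every pair of libraries differed beyond sampling noise (chi-square).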

Additional observations from a re-analysis of the deposited data

How the results depend on the processing

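The direction of both 5p arms was the same in all settings that tested them, 19 for miR-146b-5p and 15 for miR-146a-5p. For miR-146a-5p this agreement carries little weight. The settings reuse the same counts, and in the main fit it passed the filter only through the 0 d group, where it was higher. miR-146b-5p was called in each of its 19 (log2 fold change -2.64 to -1.18). miR-146a-5p was called in 6 of 15: upper-quartile factors (-3.13), total counts (-3.71), DESeq2 (-2.93), the authors' table with a pseudocount of 1 (-3.82), 1 row per name (-3.63) and without 0 d replicate 1. Leaving out 1 library gave it -3.54 to -2.21. The cause of these changes was not tested. The log2 ratio of the paralogs reversed to -0.41 without 0 d replicate 3 and reached 0.70 without 0 d replicate 1, from 0.20 over all libraries. The replicate number as a replicate block changed no call of either 5p arm (edgeR, -1.78, adjusted p = 0.0217, for miR-146b-5p and -2.58, adjusted p = 0.195, for miR-146a-5p). The block gave 62 calls in place of 65, 31 in each direction. In the inflammation-linked list it gave 6 higher and 3 lower of 14. DESeq2 gave 5 and 5 in the list, beside 37 higher and 44 lower over all 119 tested sequences. Deviations of same-numbered libraries correlated at -0.01, 0.01 and 0.11, so the numbers were not taken to pair samples. With total counts the median shift of the log2 fold changes was -0.86, with 18 calls higher and 46 lower at 14 d, against 31 and 34 with TMM; thinning gave 36 and 25. At 14 d, 6 counts of miR-146a-5p limit its values.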
